A study of Mus musculus with 11 samples.

Results

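The nuclei described here are GABA nuclei in which the neuronal glycine transporter gene Slc6a5 was not detected. They came from cerebellum, brainstem and cervical cord tissue of mice. Counts of unique molecular identifiers (UMIs, which stand for single captured RNA molecules) chose them. A barcode was a member if it held at least 1000 genes, less than 5% mitochondrial UMIs, at least 3 UMIs of Gad1 and Gad2 together, no UMI of Slc6a5, Tfap2b, Lgi2 or Ppp1r17, at most 2 UMIs of Sorcs3 and Nxph1 together, at most 1 UMI of Slc17a6, at most 1 UMI of Mog and Mag together, and less than 0.2% of its UMIs from the granule cell genes Gabra6, Fat2, Chn2 and Etv1. This rule left 256 nuclei, 0.162% of the 157612 barcodes within the gene and mitochondrial limits, of 189709 barcodes in all.

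Nuclei positive for the DNA stain Hoechst had been sorted from cerebellum, the brainstem of 1 hemisphere and cervical cord, pooled per sample, of male mice aged 8 to 12 weeks, and sequenced from the 3′ end of transcripts. All mice carried Il12rb2fl/fl, in which loxP sites flank part of Il12rb2, the gene of a chain of the interleukin-12 receptor. NestinCre/+Il12rb2fl/fl mice also carried Cre recombinase under the promoter of Nestin. This promoter acts in the precursors that give rise to neurons and to all glia but microglia, so that the deletion is not particular to GABA neurons. Samples were taken at day 10 of experimental autoimmune encephalomyelitis, abbreviated EAE, in which immunization against myelin gives a disease that models multiple sclerosis. The groups were Il12rb2fl/fl EAE (fl EAE, replicates 1 to 4), NestinCre/+Il12rb2fl/fl EAE (NestinCre EAE, replicates 1 to 4), non-immunized Il12rb2fl/fl (fl naive, replicates 2 and 3) and 1 non-immunized NestinCre/+Il12rb2fl/fl sample (NestinCre naive 2), which had no replicate. Replicates 1 to 3 of both EAE groups were sequenced in run 1, fl naive 2 with the fourth replicates of the EAE groups in run 2, and both remaining naive samples in run 3.

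GABA neurons make their transmitter from glutamate with the glutamic acid decarboxylases encoded by Gad1 and Gad2, and load it into vesicles with the vesicular transporter encoded by Slc32a1. In brainstem and cord many inhibitory neurons also take up glycine through Slc6a5 and release both transmitters, whereas other GABA neurons lack glycine. Inhibitory neurons of these regions arise from separate progenitor domains that are marked by transcription factors such as Pax2, Lhx1 and Lhx5, Tal1 and Gata3, or Sox14, and HOX genes keep a record of position along the hindbrain and cord.

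The members held 65199 to 315256 UMIs per sample, of library totals between 40761007 and 86063464, and a median member held 5965 UMIs and 2836 genes. Many members lay close to a limit. Gad1 and Gad2 gave exactly 3 UMIs in 95 of the 256, and 274 barcodes that met every other condition lay just outside at 2 UMIs. For Sorcs3 and Nxph1, which mark molecular layer interneurons of the cerebellum, 75 members lay at 2 UMIs and 73 barcodes just outside at 3. A single UMI of Slc6a5 kept out 22 barcodes and a single UMI of Lgi2, a Golgi cell gene, kept out 62. The absence of Slc6a5 therefore means that no molecule was captured at this depth, not that the gene was silent. Scrublet, which scores barcodes for resemblance to simulated pairs of nuclei, placed 43 members (16.8%) in its highest-scoring share, against 15.95% of all barcodes within limits, and they were kept. Pairs of libraries shared 47 to 140 barcode sequences, 8 member barcodes also occurred in another library, and no barcode occurred among the members of more than 1 library.

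The label GABA neuron was checked with Slc32a1, which the rule had not used. It had a UMI in 53 members (20.7%, exact 95% interval 15.9 to 26.2%). The share was 6.86% of 1648 nuclei with at least 3 UMIs of Slc17a6, the vesicular glutamate transporter of these regions, and no Gad1, Gad2 or Slc6a5, which should lack it (called excitatory nuclei here). These held a median of 13896.5 UMIs, more than the members. After each nucleus was thinned to 1500 UMIs the shares were 9.13% of members and 0.910% of excitatory nuclei. Glycinergic nuclei, chosen by at least 2 UMIs of Slc6a5 (1037 nuclei, median 10874 UMIs), gave 5.88% after thinning, and interneuron nuclei, chosen by Gad1 and Gad2 with at least 3 UMIs of Sorcs3 and Nxph1 (3937 nuclei, median 5333 UMIs), gave 7.17%. Intervals cover counting error only.

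Il12rb2 gave 22 UMIs from 20 of the 256 members, too few to rank the groups. It was counted over the whole gene (chromosome 6, positions 67268302 to 67353172 of GRCm39), introns included, so its counts do not separate the part between the loxP sites and check nothing about the genotype labels. The fl EAE samples held 0, 2, 0 and 1 UMIs, the NestinCre EAE samples 1, 1, 4 and 1, the fl naive samples 9 and 0, and NestinCre naive 2 held 3. The groups overlapped, at 5.563 ± 6.996 counts per 1000000 member UMIs (CPM, SD, n = 4) in fl EAE and 15.8 ± 15.1 in NestinCre EAE. Il12rb1, the other receptor chain, gave no UMI in any member, and neither did Nes, the gene whose promoter drives Cre.

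The share of these nuclei did not differ detectably between the EAE groups. It was 0.167%, 0.145%, 0.172% and 0.0864% of nuclei within limits in fl EAE, and 0.0717%, 0.207%, 0.187% and 0.274% in NestinCre EAE. The lowest and the highest of the 11 samples were both NestinCre EAE samples, replicates 1 and 4, and the fl EAE values lay between them. On average the share was 0.143 ± 0.0394% in fl EAE and 0.185 ± 0.0842% in NestinCre EAE (SD, n = 4 each). The ratio was 1.30, and the exact two-sided permutation p was 0.371, where 0.0286 is the smallest that 4 against 4 samples allow. Among the run 1 samples the difference was -0.00616 percentage points (exact permutation p = 1.00). Without NestinCre EAE 1 it was 0.0801 points, a ratio of 1.56. The exact permutation p was then 0.0571, the smallest that 3 against 4 samples allow. The naive samples lay at 0.206% and 0.138% (fl naive) and 0.109% (NestinCre naive). The samples pool 3 tissues, so a different share can also come from a different mix of tissues, which was not tested.

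**Figure D1:**
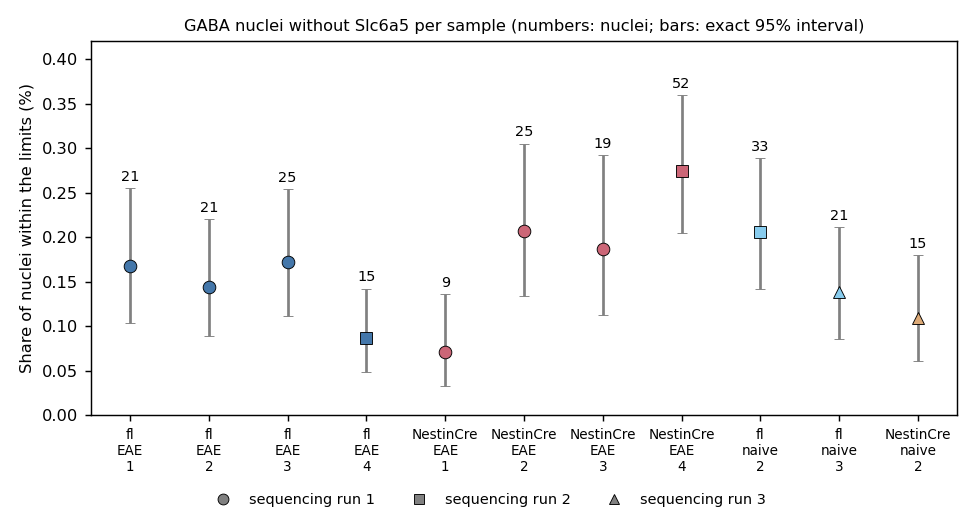
Percent of the nuclei within limits that were members, by sample, with exact 95% intervals as bars, the number of members beside each point and the marker shape for the sequencing run (circle 1, square 2, triangle 3). NestinCre EAE spans 0.0717% to 0.274% and covers the whole range of fl EAE.

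The members were not 1 kind of neuron. Clustering of the 256 nuclei alone gave 7 clusters of 98, 46, 44, 33, 19, 9 and 7 nuclei, which are described by their leading genes and left unnamed. They are a description, since the same counts defined them. The first and largest (38.3% of members) was led by Tafa1, Htr2c (a serotonin receptor), Il1rapl2, Arhgap24 and Hs3st4, and was found in all 11 samples. The second (17.97%) was led by Kit, a receptor tyrosine kinase, with Gldc, Megf10, Socs2 and Ntn1. It carried the interneuron markers at a summed 2082 CPM, against 98 to 887 CPM in the other clusters, and had the lowest median depth, 2530.5 UMIs. These markers include Sorcs3 and Nxph1, which the rule capped per nucleus, and Tfap2b, which it excluded. The sum is therefore not independent of the rule or of depth.

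The third cluster (17.2%) was led by Slc4a4, Ror1, Cnksr3, Etv1 and Gabra6, the last of these a GABA receptor subunit typical of granule cells. Granule cell markers summed to 1407 CPM there and to 192 to 424 CPM in the other clusters, and 20 of its 44 nuclei were in the highest-scoring Scrublet share. These markers include Gabra6, Fat2, Chn2 and Etv1, whose share the rule limited. The fourth (12.9%) was led by Slc24a4, Fbxl7, Gsg1l, Minar1 and Srgap1, and 26 of its 33 nuclei had a UMI of the forkhead factor Foxp2. The fifth (7.42%) was led by Cpne4, Lef1, Vwc2, Maf and Nkain3, and 11 of its 19 nuclei had a UMI of Gata3. The sixth (9 nuclei) was led by Hmcn1, Gabrr2, Pcbp3, Reln and Col25a1, with Meis2 and Reln in 9 of 9. Otx2 lay at 315 CPM in it, against 0.701 CPM in glycinergic, 0.865 CPM in excitatory and 6.52 CPM in interneuron nuclei.

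The seventh (7 nuclei) was led by the calcium channel gene Itpr1 and by Car8, both markers of Purkinje cells, the output neurons of the cerebellar cortex. Purkinje cell markers summed to 18565 CPM in it and to 87 to 590 CPM in the others, and none of the 7 nuclei had a UMI of Slc32a1. The exclusion of Ppp1r17, another Purkinje cell gene, had not removed them. The gene tests, the share and the HOX comparison were repeated without the Kit, the Gabra6 or the Itpr1 cluster. These clusters carry marker genes of cerebellar cortex neurons. The other clusters, the Cpne4 and Lef1 cluster among them, were kept in every such repeat. Among the kept clusters, the Slc24a4 cluster carried interneuron markers at 887 CPM and the Hmcn1 cluster Purkinje cell markers at 590 CPM. The repeats therefore did not remove every nucleus with such markers.

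**Figure D2:**
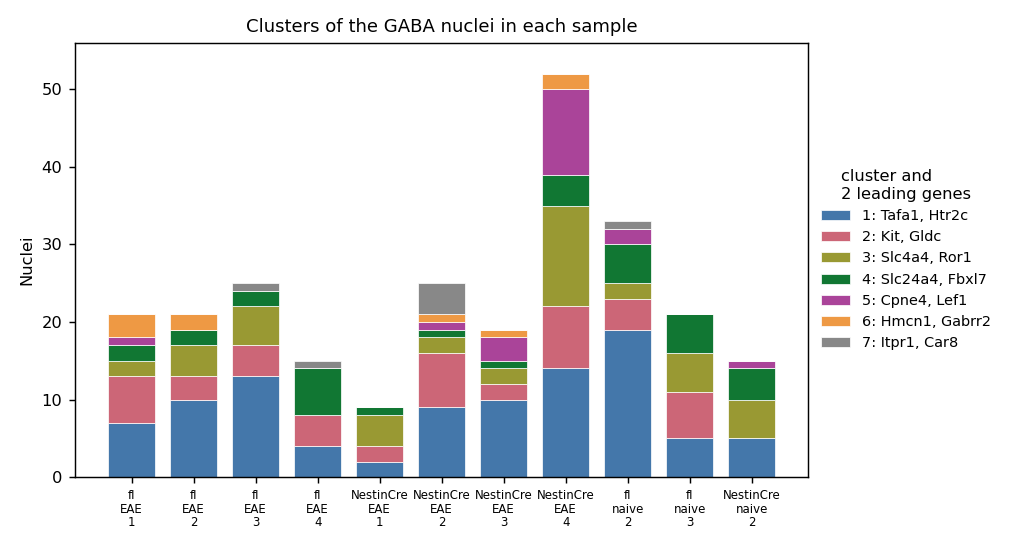
Number of members in each of the 7 clusters, as stacked bars for each of the 11 samples. The Cpne4 and Lef1 cluster had 11 of its 19 nuclei in NestinCre EAE 4 and the Itpr1 and Car8 cluster 4 of its 7 in NestinCre EAE 2.

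No cluster took a detectably different share of members in the 2 EAE genotypes, with exact permutation p-values of at least 0.171 before and 0.767 after adjustment over the 7 clusters. Some clusters were carried by single samples. The Cpne4 and Lef1 cluster held 1, 0, 0 and 0 nuclei in fl EAE and 0, 1, 3 and 11 in NestinCre EAE. The last of these samples, NestinCre EAE 4, had the most UMIs of any library. Its median per nucleus within limits was 2755 UMIs, below the 3405 of fl EAE 4. The Slc24a4 cluster held 6 of the 15 members of fl EAE 4 and 1 to 4 nuclei in the other EAE samples. At resolutions 0.3 and 1.0 the nuclei fell into 5 and 10 clusters, with adjusted Rand indices of 0.547 and 0.657 against the 7. At 0.3 the first cluster, 36 of the 44 nuclei of the Gabra6 cluster and all 19 of the Cpne4 cluster fell into 1 group of 153. At 1.0 the first cluster kept 60 of its 98 nuclei together and the Gabra6 cluster 24 of 44, so these borders depend on the resolution. The Kit, Slc24a4, Hmcn1 and Itpr1 clusters each stayed together at all 3 resolutions, the Kit cluster in a group of 54 at 0.3.

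Transcription factors of inhibitory lineages split the members further. Zfpm2, a cofactor of GATA factors, had a UMI in 64.8% of members, Foxp2 in 27.3%, the LIM homeobox gene Lhx1 in 22.3%, Maf in 19.9%, Meis2 in 17.97% and Rorb in 17.97%. Lhx5 was found in 13.7%, Pax2 in 12.5%, Gata3 in 9.77%, Tfap2a in 9.0%, Sox14 in 7.03% and Tal1 in 5.5%. Dlx1, Dlx2, Dlx6 and Lhx6, factors of forebrain GABA neurons, had no UMI in any member, which is not said of Dlx5, also listed. Foxd3, Evx1, Nkx6-1, Prdm13 and Sp8 had no UMI either. A count of 0 of 256 allows a share of up to 1.17% of nuclei with a UMI at this depth, which does not limit the share of nuclei that express the gene.

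Pax2, a paired-box factor of dorsal inhibitory neurons, and the GATA group were found in separate nuclei. Gata3 had a UMI in 25 members and Pax2 in 32, and no nucleus had both. Of the 36 nuclei with any of Gata2, Gata3 and Tal1, none had Pax2. Pax2 appeared in the first 3 clusters (18, 8 and 6 nuclei) and in no nucleus of the other 4. Gata3 and Tal1, which act in the same complex, were found together in 5 nuclei, Gata3 with Sox14 in 9 and Gata3 with Foxp2 in 8. Tfap2a, a factor of cerebellar interneuron precursors among other cells, had 14 of its 23 nuclei in the Kit cluster. With so few nuclei the joint counts are descriptions.

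**Figure D3:**
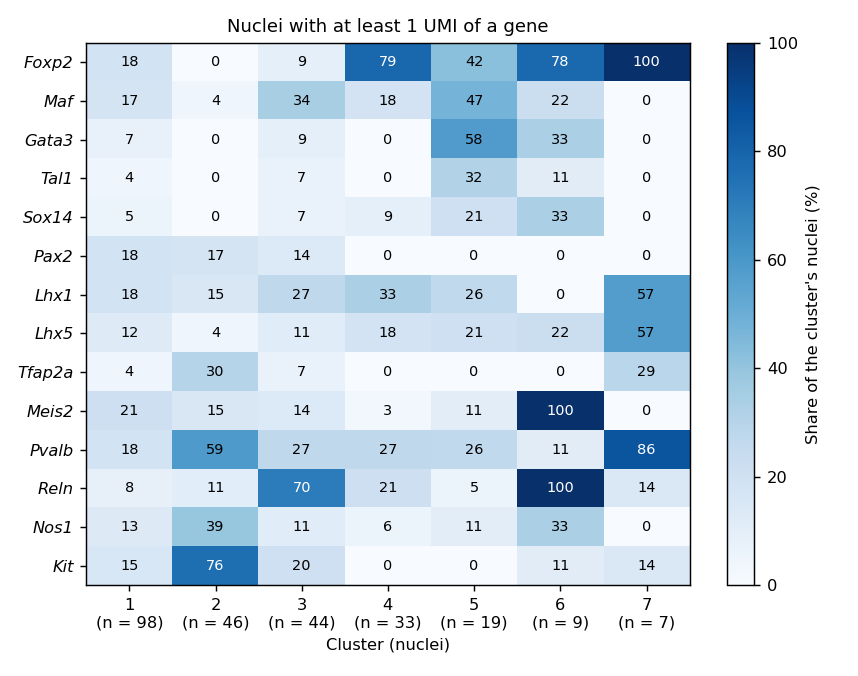
Percent of the nuclei of each cluster with at least 1 UMI of 14 genes, which were chosen after their values were seen, as a heat map with genes in rows and the clusters, numbered by size, in columns. Foxp2 is found most often in the Slc24a4, Hmcn1 and Itpr1 clusters (4, 6 and 7), Gata3 and Tal1 in the Cpne4 cluster (5), and Meis2 and Reln in every nucleus of the Hmcn1 cluster (6).

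The share of nuclei with Pax2 was lower in the members than in glycinergic nuclei, and the share with Foxp2 was higher. These shares were set side by side after thinning to 1500 UMIs, with no test across classes. Pax2 was found in 5.95% of thinned members, 16.6% of glycinergic and 7.34% of interneuron nuclei (12.5%, 60.2% and 20.6% before thinning). Foxp2 was found in 17.9% of thinned members, 6.75% of glycinergic, 22.8% of excitatory and 3.28% of interneuron nuclei. Sox14 was found in 4 of 252 thinned members (1.59%) and 3 of 1037 thinned glycinergic nuclei (0.289%), counts too small to order the classes after thinning.

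HOX genes separated the members from glycinergic and excitatory nuclei. The 27 HOX genes of the list summed to 83.2, 14.5, 111 and 30.9 CPM in the fl EAE samples and to 138, 7.38, 65.1 and 41.2 CPM in NestinCre EAE, with no order between the groups. Over all 11 samples the members lay at 56.5 ± 42.2 CPM, glycinergic nuclei at 212 ± 37.6 and excitatory nuclei at 146 ± 30.6 (SD, n = 11). The members were lower than glycinergic nuclei in 11 of 11 samples and lower than excitatory nuclei in 11 of 11. An exact two-sided sign-flip permutation test over samples gave p = 0.000977 for each, the smallest value it can give, and 0.00146 after adjustment over 3 comparisons. Interneuron nuclei lay at 44.3 ± 17.0 CPM, and the members were lower in 4 of 11 samples (p = 0.429 by the same exact test). The test was chosen after the levels had been seen. Without the Kit, Gabra6 and Itpr1 clusters together the members lay at 57.7 ± 38.7 CPM, again below glycinergic and excitatory nuclei in 11 of 11 samples (adjusted p = 0.00146 by the same exact test). With the Kit cluster alone left out they were lower than excitatory nuclei in 10 of 11 samples (adjusted p = 0.00293 by the same exact test). By nucleus, 35 of 256 members had a HOX UMI (13.7%, exact 95% interval 9.71 to 18.5%), against 70.01% of glycinergic and 11.8% of interneuron nuclei, and after thinning the shares were 3.57%, 24.2% and 4.42%.

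**Figure D4:**
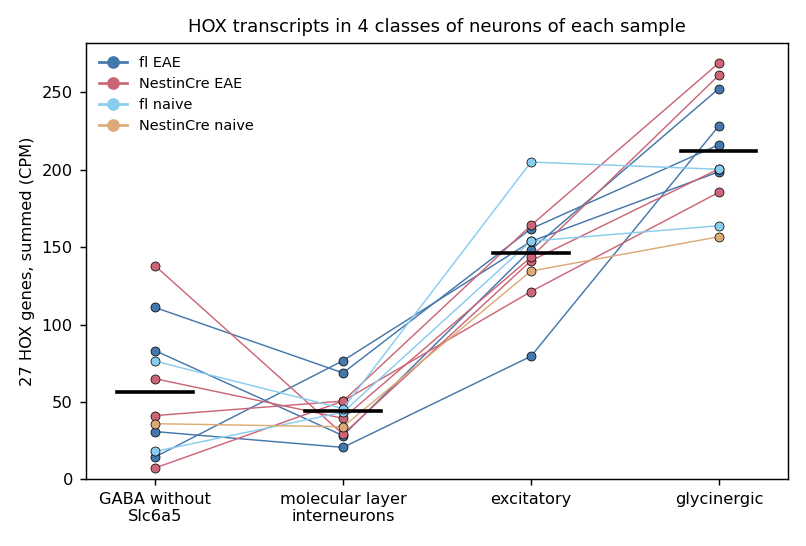
Summed CPM of 27 HOX genes in 4 classes of nuclei, where each point is a sample, thin lines join the classes of a sample and black bars give the mean over 11 samples. In all 11 samples the members lie below both excitatory and glycinergic nuclei, and members and interneuron nuclei overlap.

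Genes that handle GABA and glycine were described by their level over all members. Slc6a11, a GABA carrier found mostly in astrocytes, lay at 34.1 CPM against 9.9 CPM in glycinergic nuclei. Abat, the enzyme that breaks GABA down, lay at 132 CPM. Slc6a13, a carrier of meninges and liver, had no UMI. Of the glycine genes, the receptor subunit gene Glra1 lay at 79.1 CPM, below 263.9 CPM in glycinergic and 226.9 CPM in excitatory nuclei and above 43.3 CPM in interneuron nuclei. Among interneuron markers outside the rule, Pvalb had a UMI in 30.5% of members, Reln in 24.2%, Kit in 23.8%, Nos1 in 16.8% and Sst in 8.2%, while the peptide genes Vip, Crh and Trh had none. These pooled values have no replicate error.

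The genotype comparison in EAE asks what the loss of Il12rb2 in the neural lineage changes in these nuclei at day 10. UMIs were summed over the members of each sample and tested with edgeR's quasi-likelihood test with the run in the model. The sums pool all clusters, so a level can also differ through a different mix of clusters, which was not tested. No gene of the 2889 tested passed a Benjamini-Hochberg adjusted p of 0.05 (0% called), 150 had an unadjusted p under 0.05 (5.19%), and DESeq2 called none. The sums are small, with 9 to 52 nuclei per sample, and the labels give 1 library per replicate, so that p-values measure the spread between these samples. The genes with the smallest p-values are described next because a fixed rule named them, and none of them passed (adjusted p of at least 0.653 by edgeR).

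Grid1, a glutamate receptor gene of the delta family, lay at 610.1, 392, 561 and 425 CPM in fl EAE and at 1166, 790.0, 976 and 856 CPM in NestinCre EAE. The groups did not overlap, and the log2 difference was 0.95 ± 0.22 (SE). Pcdh15, a protocadherin known from the tip links of hair cells, lay at 379, 755, 1116 and 549 CPM in fl EAE and at 1273, 1373, 2184 and 1897 CPM in NestinCre EAE, again without overlap (log2 difference 1.29 ± 0.31). In fl naive 2 it reached 1646 CPM, inside the range of NestinCre EAE.

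Vwc2l, which encodes a secreted protein with von Willebrand factor C domains, lay at 83.2, 29.0, 94.4 and 30.9 CPM in fl EAE and at 153, 140.3, 167 and 193 CPM in NestinCre EAE. All NestinCre EAE samples were above all fl EAE samples (log2 difference 1.49 ± 0.36). A single nucleus gave 8 of the 10 Vwc2l UMIs of NestinCre EAE 1, and another gave 15 of the 18 of NestinCre EAE 3. In the other direction, Sdk1, an adhesion molecule of synaptic layers, lay at 287, 443, 461 and 487 CPM in fl EAE and at 153, 199, 242 and 232 CPM in NestinCre EAE (log2 difference -0.98 ± 0.24). Dach1, a transcription factor of the dachshund family, lay at 231, 399, 394 and 479 CPM in fl EAE and at 76.7, 266, 92.9 and 152 CPM in NestinCre EAE, where replicate 2 overlapped fl EAE (log2 difference -1.26 ± 0.33). Without that replicate Dach1 passed (-1.81, adjusted p = 0.0175 by edgeR). The sample left out there is the one that overlapped, so nothing is read from this pass. With any other EAE sample left out, no gene was called.

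The lists of neuronal genes were described by their direction beside that of all genes tested, of which 51.1% were above 0 with a median log2 difference of 0.0055. No list had a called member. Glutamate receptors had 18 of 20 tested members above 0, with a median of 0.145 and a range of -0.63 to 1.14. The number above 0 was 13 of 20 without NestinCre EAE 2, which held 4 of the 7 Itpr1 and Car8 nuclei, and 11 of 18 among nuclei with at least 5 UMIs of Gad1 and Gad2. The summed level of the list was 20152 ± 4109 CPM in fl EAE and 22157 ± 4806 CPM in NestinCre EAE (SD, n = 4), a difference within the spread.

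GABA receptors had 7 of 11 tested members above 0 with a median of 0.134, and their sum was 3281 ± 341 CPM in fl EAE and 3754 ± 567 CPM in NestinCre EAE. The highest member was the alpha 2 subunit gene Gabra2, at 129 ± 72.7 and 294 ± 151 CPM. Genes of GABA synthesis, packaging and uptake had 2 of 5 above 0, and their sum was 1328 ± 151 against 1326 ± 196 CPM. Ion channels had 15 of 22 above 0 (median 0.036), the neuronal genes that the study names 6 of 17 (median -0.050), trophic factors and their receptors 4 of 10 (median -0.063) and adhesion genes of inhibitory synapses 2 of 6 (median -0.010). The study chose its neuronal genes on these samples, so their direction is not independent evidence. In glycine genes 3 of 4 were above 0 (median 0.021), in lineage factors 3 of 5 (median 0.41) and in peptides and interneuron genes 1 of 3 (median -0.108).

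Some genes of the interferon response and of antigen presentation had higher levels in NestinCre EAE, although too few UMIs were counted for any gene of either list to enter the genotype fit in EAE. They were read from the summed UMIs with no test, and their values carry counting error of a few molecules. B2m, the light chain that all MHC class I molecules share, lay at 9.24, 0, 0 and 0 CPM in fl EAE and at 92.0, 36.9, 27.9 and 50.8 CPM in NestinCre EAE, from 1 UMI in the first group and 30 in the second (2.31 ± 4.62 and 51.9 ± 28.4 CPM, SD, n = 4). The groups did not overlap. The naive samples lay at 4.52 and 9.55 CPM (fl naive) and at 7.20 CPM (NestinCre naive), from 1 UMI each. The B2m UMIs of NestinCre EAE came from 4, 3, 3 and 13 nuclei. Irf9, an interferon regulatory factor, lay at 9.24, 14.5, 11.1 and 7.73 CPM against 76.7, 14.8, 18.6 and 34.9 CPM. Its level in replicate 2 of both groups came from 2 UMIs, so these samples differ only by their totals.

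Among genes with at least 10 UMIs in members of the EAE samples, 1.57% (167 of 10604) had all NestinCre EAE samples above all fl EAE samples and 1.68% all below. Among genes in the fit the shares were 1.07% and 1.83%. Non-overlap held for 1 of 23 glutamate receptors (Grid1), 1 of 7 glycine genes (the receptor subunit gene Glra3) and 1 of 22 neuronal genes named by the study (Camk1d), each in the higher direction. B2m reached the limit of 10 UMIs only through NestinCre EAE, and Irf9 had 6 UMIs in fl EAE and 20 in NestinCre EAE, so nothing is read from their non-overlap against this background.

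The promoter of B2m is shown because its gene was at or near 0 in fl EAE and because it holds a match to a motif bound by interferon-regulated factors. The sequence is the RefSeq entry on GRCm38.p6, chr2:122147437-122147736, plus strand, from 250 bases before to 50 after the gene's start. The motif searched was GAAA, any 2 bases and GAAA again, on both strands, and its match is in capitals.
B2m: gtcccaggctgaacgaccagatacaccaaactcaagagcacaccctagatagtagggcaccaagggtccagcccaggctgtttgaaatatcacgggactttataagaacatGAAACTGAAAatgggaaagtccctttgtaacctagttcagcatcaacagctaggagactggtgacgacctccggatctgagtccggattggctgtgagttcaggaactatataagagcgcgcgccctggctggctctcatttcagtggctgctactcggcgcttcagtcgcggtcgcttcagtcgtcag
The match starts 139 bases before the gene's start. The same letters occurred in 1131 of 32851 promoters of that length (3.44%). It is a description of the sequence and not evidence that a factor bound there.

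As a sum, the 45 genes of the interferon response list reached 222, 254, 156 and 155 CPM in fl EAE and 675, 517, 297 and 580.5 CPM in NestinCre EAE, with no overlap (197 ± 49.6 and 517 ± 160.4, SD, n = 4). The naive samples lay between 124 and 203 CPM. The 18 genes of the MHC class I list reached 120.2, 94.4, 94.4 and 155 CPM in fl EAE and 353, 317, 121 and 339 CPM in NestinCre EAE, where replicate 3 lay inside the range of fl EAE. H2-K1, a class I heavy chain gene, gave 0 CPM in all fl EAE samples and 17 of its 20 UMIs in NestinCre EAE 4 alone. H2-D1, another heavy chain gene, overlapped fully, at 35.0 ± 31.0 and 53.9 ± 50.8 CPM. H2 genes are near-identical copies, so reads may have been split between them.

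The separation depended on which nuclei were taken. Of 8 other choices of nuclei, the EAE groups overlapped in B2m under 2, where at least 5 UMIs of Gad1 and Gad2 or at least 1 UMI of Slc32a1 were asked for. It then lay at 0 to 28.0 CPM in fl EAE and 0 to 135 CPM in NestinCre EAE for the former, and at 0 to 31.8 and 0 to 92.4 CPM for the latter. The interferon response sum overlapped under the same limits, and also with at least 1500 genes, without the highest-scoring Scrublet barcodes and without the cluster led by granule cell genes.

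**Figure D5:**
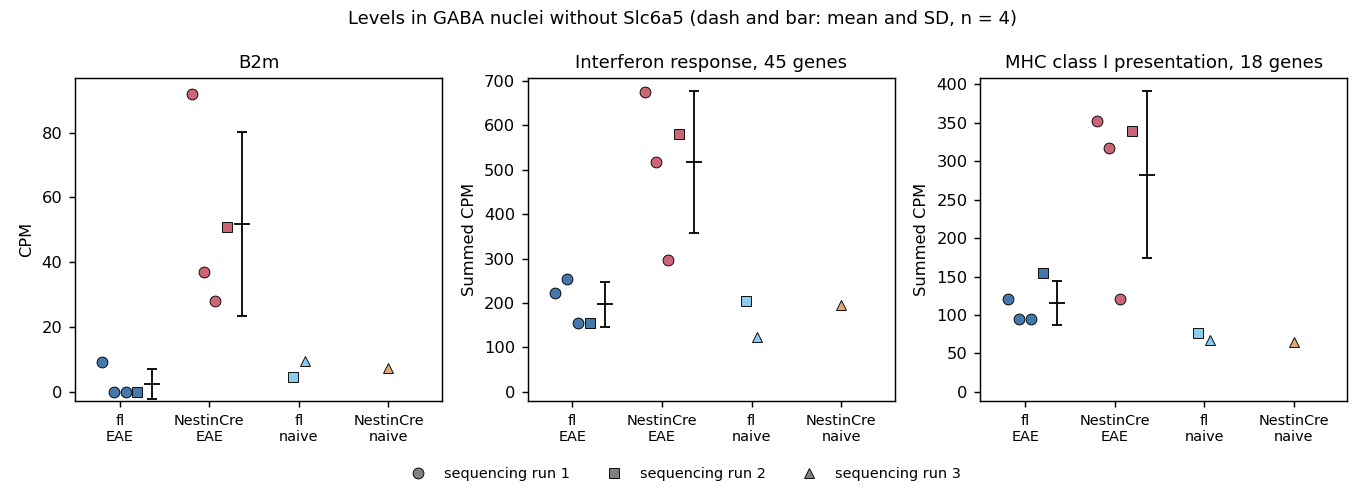
CPM over the members of each sample for B2m, the summed interferon response list (45 genes) and the summed MHC class I list (18 genes), with the mean and SD of each EAE group (n = 4) and the single naive samples. All NestinCre EAE points lie above all fl EAE points in the first 2 panels, and in the last NestinCre EAE 3 lies at 121 CPM.

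Markers of immune cells were measured in the same nuclei. The phagocyte markers summed to 0 CPM in all fl EAE samples and to 92.0, 29.5, 0 and 19.0 CPM in NestinCre EAE. The microglia markers overlapped (122 to 239.6 against 177 to 298 CPM), as did the T and NK cell markers (11.1 to 43.6 against 14.8 to 76.7 CPM). Over all nuclei of a sample the interferon response sum was 232 to 355 CPM in fl EAE and 637 to 1335 CPM in NestinCre EAE, and the part of RNA from other cells in the difference among the members was not tested.

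In the other neurons B2m and the interferon response sum were higher in NestinCre EAE too, and the sums were not tested. B2m passed the test in interneuron nuclei, where it lay at 6.61 ± 0.730 CPM in fl EAE and 36.8 ± 19.4 CPM in NestinCre EAE (log2 difference 2.51 ± 0.37, adjusted p = 0.0425 by edgeR). In excitatory nuclei it did not pass (1.89 ± 0.31, adjusted p = 0.0661), and in glycinergic nuclei it lay at 3.61 ± 1.16 and 18.1 ± 8.04 CPM. The interferon response sum was 186 to 229 CPM in fl EAE and 307 to 402 CPM in NestinCre EAE in glycinergic nuclei, 163 to 210 and 310 to 426 CPM in excitatory nuclei, and 163 to 226 and 272 to 566 CPM in interneuron nuclei. The difference between classes was tested directly for B2m and was not called (2.27 ± 1.28 on the log2 scale against glycinergic nuclei, adjusted p = 1.00 by edgeR).

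Over all genes, hardly any were called as differing in the genotype effect between the members and other neurons. With 9 to 52 member nuclei per sample, a lack of calls does not show that the classes were alike. Against glycinergic nuclei 0 of 8569 genes were called (0%, 370 at an unadjusted p under 0.05, DESeq2 0), and against excitatory nuclei 0 of 10309 (0%, 449 at an unadjusted p under 0.05, DESeq2 1). The nearest gene against excitatory nuclei was Pcdh15 (1.51 ± 0.28, adjusted p = 0.0793 by edgeR). Against interneuron nuclei 1 of 10273 genes (0.00973%) was called. This was Vwc2l, with a difference between the genotype effects of 2.14 ± 0.36 on the log2 scale (adjusted p = 0.0163 by edgeR). In interneuron nuclei its level was 84.8 ± 24.4 CPM in fl EAE and 51.1 ± 23.9 CPM in NestinCre EAE, opposite to the members. With 1 sample left out at a time, the call was lost without fl EAE 2 (adjusted p = 0.122 by edgeR), NestinCre EAE 1 (0.0523) or NestinCre EAE 3 (0.0531), and in both of these NestinCre EAE samples a single nucleus held most Vwc2l UMIs. In excitatory nuclei Vwc2l lay at 254 ± 33.8 and 244 ± 27.3 CPM.

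EAE was compared with the naive state in a fit of all 11 samples. In Il12rb2fl/fl mice 0 of 5366 genes were called (0%, 209 at an unadjusted p under 0.05, DESeq2 0). The smallest p-values belonged to genes that were lower in EAE. Htr2c had a log2 difference of -1.93 ± 0.44 (adjusted p = 0.881 by edgeR) and lay at 157, 348, 405 and 271 CPM in fl EAE and at 855 and 28.7 CPM in fl naive. Thus fl naive 2 lay above all fl EAE samples and fl naive 3 below them. This contrast rests on fl naive 2, the only naive sample that shared a run with EAE samples.

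In NestinCre/+Il12rb2fl/fl mice 3 of 5366 genes were called, all lower in EAE (0.0559%). Il1rapl2, a synaptic adhesion protein of the interleukin-1 receptor family, lay at 138, 288, 177 and 282 CPM in NestinCre EAE and at 1195 CPM in NestinCre naive 2 (log2 difference -7.10 ± 0.97, adjusted p = 0.0045 by edgeR). Gpc5, a heparan sulfate proteoglycan of the cell surface, lay at 399, 66.5, 279 and 213 CPM and at 849.7 CPM (-8.04 ± 1.26, adjusted p = 0.0147). Nrg1, a ligand of ErbB receptors, lay at 2669, 2141, 3532 and 1916 CPM and at 3348 CPM, inside the range of the EAE samples (-3.73 ± 0.60, adjusted p = 0.0147).

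The fitted differences were larger than those of the levels. The only NestinCre naive sample was in run 3, and the term for run 3 is set by fl naive 3 against fl naive 2. Il1rapl2 lay at 66.9 CPM in fl naive 3 and at 1334 CPM in fl naive 2, and Nrg1 at 659 and 4721 CPM. Without the run term the differences were -2.35 for Il1rapl2, -1.91 for Gpc5 and -0.38 for Nrg1, and none passed (adjusted p of at least 0.544 by edgeR). Without the cluster led by granule cell genes none of the 3 passed either. The 6 astrocyte markers, led by the glutamate carrier gene Slc1a2, summed to 540.1 CPM in the members of NestinCre naive 2 and to 29.5 to 162 CPM in the other 10 samples, and to 429.6 CPM over the nuclei of that cluster. Their part in the 3 calls was not tested. Without the Kit cluster only Il1rapl2 passed, and Nrg1 was lost without NestinCre EAE 4. Run and condition cannot be told apart for these genes with so few naive samples.

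The genotype comparison in naive mice rested on 1 sample against 2. None of 5366 genes was called by edgeR (0%, 311 at an unadjusted p under 0.05), and DESeq2 called 4. The interaction, which asks whether the genotype difference in EAE differs from that in naive mice, gave 0 of 5366 by edgeR (0%, 270 at an unadjusted p under 0.05) and 3 by DESeq2. The same genes led it, with Gpc5 at -6.59 (adjusted p = 0.1004 by edgeR), Il1rapl2 at -4.79 and Nrg1 at -2.47. The naive samples were too few for levels in single genes to be ordered.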

How the data were processed

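Single-nucleus RNA was measured in 11 samples. The deposited matrices hold raw UMI counts per gene and barcode, made by the authors with Cell Ranger (6.0.2 on GRCm39, per the labels, while the file headers name another version for run 1), with intronic reads counted. Replicates were not pooled. The kit version differs between the labels and the study's methods. Gene positions were read from the GENCODE annotation of GRCm39. The members and all gene lists were chosen with earlier results of these data known.

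Barcodes were selected in Python 3.11.15 (numpy 2.4.6, pandas 2.3.3, scipy 1.17.1) by the limits given above, Scrublet scores were computed in scanpy 1.11.5 and used only in an alternative, and the study's limit of 6000 UMIs was applied only as an alternative. Members were clustered on 12 principal components of 1500 variable genes with run means removed (10 neighbours, Leiden resolution 0.6). UMIs were summed per sample, because nuclei of a mouse are not replicates, and the sums were tested in R 4.3.3 by quasi-likelihood with edgeR 4.0.16, after filterByExpr and with TMM factors, and adjusted by Benjamini-Hochberg over all genes tested. Run was a covariate, and the sample was a block in comparisons between classes. DESeq2 1.42.0 was an alternative. Steps were tested on simulated data. Shares were compared by exact permutation, with exact Clopper-Pearson intervals. CPM are UMIs per 1000000 UMIs of the summed nuclei. Thinning to 1500 UMIs left out 4 members. The rule for named genes took the receptor genes, members of the lists, and the 5 genes with the smallest p in each comparison. Some items are not reported here.

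No chemokine or immediate early gene entered the fit of genotype in EAE. Summed levels in fl EAE and NestinCre EAE were 101 ± 48.7 and 141 ± 38.2 CPM for chemokines, and 122 ± 44.5 and 168 ± 42.7 CPM for immediate early genes (SD, n = 4). Of 16 heat shock and stress genes 3 were tested (1 above 0), and the list lay at 595 to 749 CPM and 552 to 598 CPM.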

Additional observations from a re-analysis of the deposited data

Results flagged for a closer look

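Of 119 tests of single samples within the EAE groups of 4, 13 had a sample far from the other 3, where chance alone gives about 1 in 20 for normally distributed values. That rate does not apply where the other 3 samples are at 0, since any value above 0 then stands apart. No explanation was tested for any of them.

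Among the kinds of nuclei, the Slc24a4 and Fbxl7 cluster made up 40.0% of the members of fl EAE 4 against 8.00 to 9.52% in the other fl EAE samples. The Cpne4 and Lef1 cluster made up 4.76% in fl EAE 1 and 0% in the other 3. The Itpr1 and Car8 cluster made up 16% in NestinCre EAE 2 and 0% in the other NestinCre EAE samples. The same sample had Purkinje cell markers at 3810 CPM against 169 to 242 CPM, and glutamate receptors at 29276 CPM against 19203 to 20856 CPM.

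Among gene levels, B2m lay at 9.24 CPM in fl EAE 1, from 1 UMI, and at 0 in the other fl EAE samples. The MHC class I sum lay at 121 CPM in NestinCre EAE 3 and at 317 to 353 CPM in the other NestinCre EAE samples. For markers of other cell types, fl EAE 1 stood apart with cholinergic markers at 9.24 CPM and endothelial markers at 18.5 CPM (0 in the other fl EAE samples), and fl EAE 3 with oligodendrocyte progenitor markers at 317 CPM (166 to 174). NestinCre EAE 1 stood apart with interneuron markers at 936 CPM (428 to 514). NestinCre EAE 4 stood apart with oligodendrocyte markers at 409 CPM (245 to 260) and unipolar brush cell markers at 3.17 CPM (0 in the other NestinCre EAE samples).

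The genotype effect on Vwc2l differed between the members and interneuron nuclei by 2.14 ± 0.36 on the log2 scale (adjusted p = 0.0163 by edgeR's quasi-likelihood test). It was above 0 with each sample left out in turn, and past the threshold in 5 of these 8 fits.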

How the results depend on the processing

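Depth is a limit, since a sample gave 9 to 52 nuclei, 95 of 256 members held the fewest Gad1 and Gad2 UMIs allowed, and no gene of the interferon response or MHC class I lists entered the filtered fit of genotype in EAE. The naive groups hold 2 and 1 samples, and a lone sample was assumed to vary like the others. Alternatives that leave out or single out clusters, the tests of HOX genes and the level comparisons were chosen after seeing the data.

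With no filter beyond 1 count, which tests many more genes at low counts, called genes numbered 16 for genotype in EAE (10 higher, B2m among them, and 6 lower), 3 for EAE against naive in Il12rb2fl/fl, 8 for EAE against naive in NestinCre/+Il12rb2fl/fl, 19 for genotype in naive, 10 for the interaction, 15 against glycinergic, 12 against excitatory and 3 against interneuron nuclei. With DESeq2 they numbered 4 for genotype in naive, 3 for the interaction, 1 against excitatory and 3 against interneuron nuclei. With size factors in edgeR 1 was called against excitatory nuclei. Without the Itpr1 and Car8 cluster there were 3 for genotype in naive, 3 for the interaction, 2 against excitatory and 2 against interneuron nuclei. For EAE against naive in NestinCre/+Il12rb2fl/fl there were 2 without a run term, 0 without the granule gene cluster and 1 without the Kit cluster, and without the Kit cluster there were 2 against interneuron nuclei. The cause of these shifts was not tested. With no filter beyond 1 count, the fit of genotype in EAE tested 16438 genes. B2m was counted almost only in NestinCre EAE, so nothing is read from its call there.

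With each sample left out in turn, the ranges were 0 to 2 (genotype in EAE, 2 without NestinCre EAE 2), 0 to 2 (EAE against naive in Il12rb2fl/fl, 2 without NestinCre EAE 4), 3 to 4 (the same in NestinCre/+Il12rb2fl/fl), 0 to 4 (genotype in naive), 0 to 2 (interaction), 0 to 0 against glycinergic, 0 to 2 against excitatory and 0 to 2 against interneuron nuclei. The difference in share ran from 0.0126 to 0.0801 percentage points and was -0.00616 in run 1 alone. The replicate numbers did not pair the samples (correlations of 0.0006, -0.099, 0.028 and -0.091 over 2889 genes), and the fit with the replicate block called 0 genes (129 at an unadjusted p under 0.05), with p = 0.625 for the share by exact permutation. Htr2c in EAE against naive in Il12rb2fl/fl turned to 0.94 among nuclei with a UMI of Slc32a1, and the H2-D1 level difference, with each sample left out in turn, ran from -2.56 CPM without NestinCre EAE 2 to 36.8 CPM without NestinCre EAE 3. Leaving out fl naive 2 gave no estimate of EAE against naive, leaving out fl naive 3 none of the 3 contrasts with NestinCre naive 2, and leaving out NestinCre naive 2 none of the same 3. Of the values of single genes and lists, 683 kept direction and side of the threshold, 67 newly passed, 12 no longer passed and 11 moved by more than the spread.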
